A study of Cucumis sativus with 4 samples.

Results

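Among the 17180 genes listed for young cucumber fruits, 124 (0.722%) were transcripts that held many reads in fruits overexpressing CsFUL1 and far fewer in wild-type fruits. They were chosen by 4 conditions on the deposited CPM, which divides a gene's reads by the total assigned to listed genes in that library and multiplies by 1000000. The mean of the OX-29 libraries was at least 300 CPM, the lower OX-29 value was at least 4 times the higher WT value, the higher WT value was at least 1 CPM, and the WT values were less than 3-fold apart. The difference between OX-29 and WT therefore chose these genes, and its size in them is given below as a description. The condition on 1 CPM removed no gene.

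RNA was sequenced from fruits of Cucumis sativus taken 4 days before the flower opens, when the fruit is still an ovary. OX-29 plants carry the coding sequence of CsFUL1 under the cauliflower mosaic virus 35S promoter in the inbred line R1407, and their fruits are short; WT plants are untransformed R1407 with long fruits. Each line gave 2 libraries, called biological replicates, and the number of plants or fruits behind each is not given in the sources used here. OX-29 is a single transformed line, although the series calls the pair near-isogenic, so an effect of CsFUL1 and a trait of that line cannot be told apart.

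CsFUL1 belongs to the FRUITFULL group of MADS-box transcription factors, which bind DNA as dimers or larger complexes and switch target genes on or off. In Arabidopsis, FRUITFULL is needed for the valves of the seed pod to grow, and pods of the mutant stay short. The 35S promoter is active in most plant cells, so the transgene is read in cells where the native gene may be silent. The cucumber fruit grows from an inferior ovary, and before flowering its growth rests largely on cell division.

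The identifiers could not be paired with names: 0 of 17180 matched the 23999 genes of the RefSeq table at hand. The genes are therefore given by identifier, with no role. The level of CsFUL1 itself, and marker genes that would check the tissue, were not analysed here. The depth was 16719990 and 16326412 assigned reads for OX-29 replicates 1 and 2 and was 19824797 and 16858940 for WT replicates 1 and 2. In these libraries the members had 3893 to 93199 reads each in OX-29 and 21 to 8185 reads each in WT, so no member was at 0. CPM is not divided by gene length, so an order between genes below is one of reads and not of transcript molecules. In bulk fruit RNA, more cells of a type and more RNA per cell cannot be told apart.

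**Figure D1:**
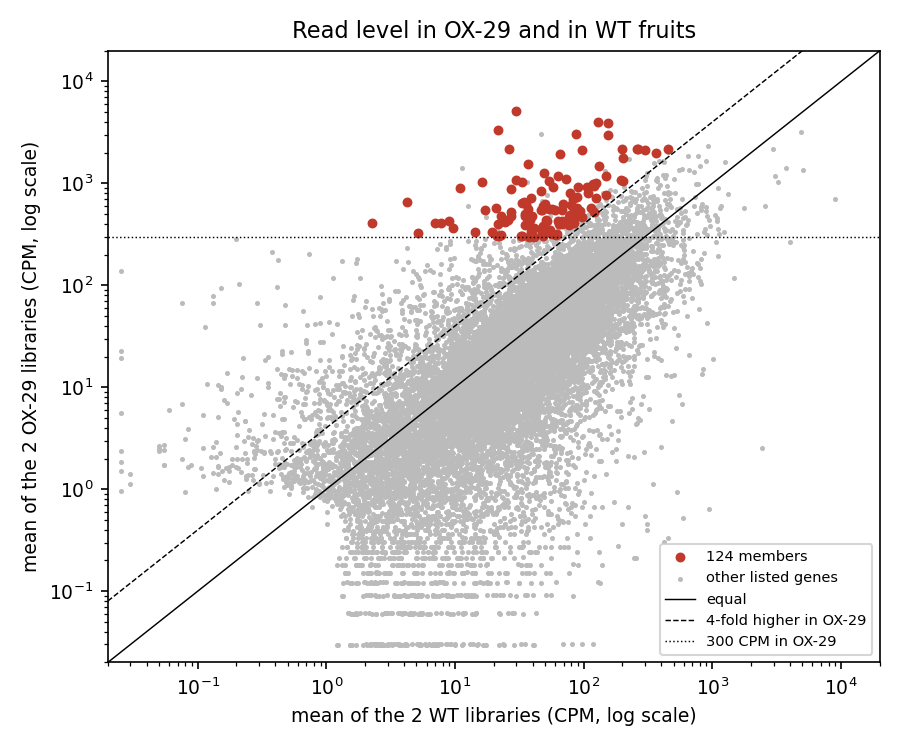
Mean CPM of the 2 OX-29 libraries (vertical, log scale) against mean CPM of the 2 WT libraries (horizontal, log scale); each point is a gene, red points are the 124 members, and genes at 0 in a line are not drawn. The members lie above 300 CPM in OX-29 and spread over WT means of 2.26 to 448 CPM.

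The members were a minority of the abundant genes of OX-29 fruits. Of the 547 genes that averaged 300 CPM or more in OX-29, 124 were members. In 415 others the lower OX-29 value was less than 4 times the higher WT value, and in 8 the lines were 4-fold apart but the WT libraries were 3-fold apart or more. The 423 abundant genes that were not members had a median log2 fold change of 0.95, with 265 called higher and 20 called lower in OX-29 (limma fitted to log2(CPM + 0.5) values, threshold of 0.05 on the Benjamini-Hochberg adjusted p). Over all 16982 genes tested, 18.6% were called higher and 38.4% lower. All 124 members were called higher in the same fit. They were also called higher by edgeR, which called 26.0% of all genes tested higher, and by DESeq2, which called 27.2% higher. A lower OX-29 value at least 4 times the higher WT value was met by 680 of the genes tested, or 4.0%. The rule used the same contrast, and the floor of 300 CPM in OX-29 by itself favours genes that are higher in OX-29. Nothing is therefore read from these counts, for the members or for the 423 other genes.

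The members took a sizeable part of the sequencing in OX-29. They held 10.8% and 10.4% of the reads of OX-29 replicates 1 and 2, against 0.868% and 0.945% of WT replicates 1 and 2. The mean was 10.6 ± 0.287% in OX-29 and 0.907 ± 0.0544% in WT (SD, n = 2 each). Counting error was small beside this, since the widest 95% Wilson interval spanned 0.015 percentage points to either side. The libraries of a line were close to each other and the lines lay far apart, as the choice of members fixes.

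The reads were spread over many members. The 3 members with the most OX-29 reads held 1.33% and 1.29% of OX-29 replicates 1 and 2, against 0.0299% and 0.0329% of WT replicates 1 and 2, and 25 members were needed to reach 50% of the member reads in OX-29. Of the 20 genes with the most OX-29 reads, 15 were members, and of the first 100 genes 39 were members. Of the 100 genes with the most WT reads, 0 were members. The rule favours many OX-29 reads and few WT reads, so these places describe the list only. By mean OX-29 level, 57 members were under 500 CPM, 38 were at 500 to under 1000 CPM and 29 reached 1000 CPM, of which 13 were above 2000 CPM.

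**Figure D2:**
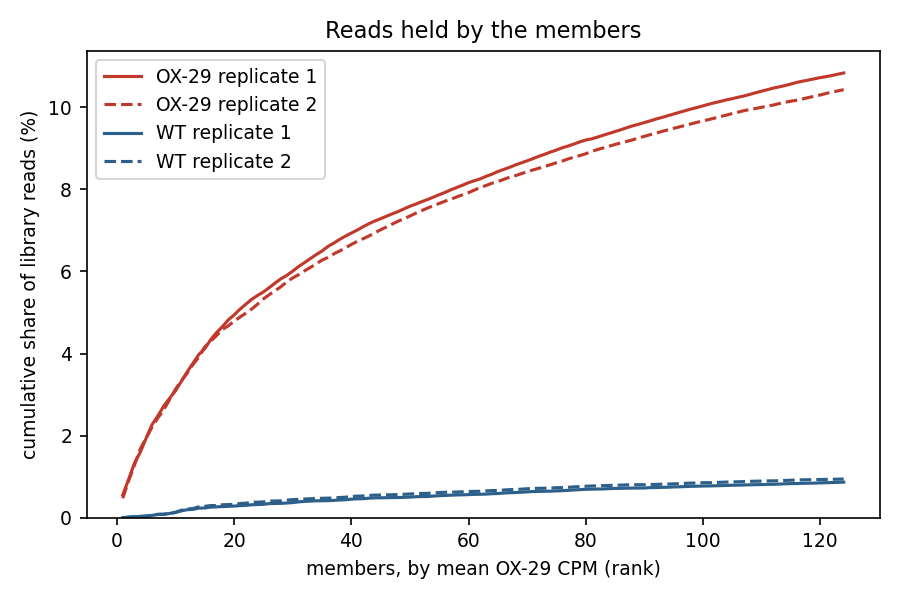
Cumulative share of library reads (%, vertical) over the 124 members in order of mean OX-29 CPM (horizontal, rank); each line is a library. The OX-29 libraries climb to 10.8% and 10.4%, and the WT libraries end at 0.868% and 0.945%.

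Each library is scaled to the same sum, so the larger share of the members in OX-29 leaves less for the other genes. Genes chosen by the mirrored rule, abundant in WT and at least 4-fold lower in OX-29, went the other way. They held a mean of 5.17% of the reads in WT and 0.479% in OX-29. The genes that were not members had a median log2 fold change of -0.40 on the deposited scale. When the member reads were left out of the library totals, this median was -0.25 over the 16900 genes then tested, and 3590 genes were called higher and 5850 lower, against 3031 and 6522 of the non-members with the deposited totals (limma, adjusted p under 0.05). Leaving out the members thus shifted the other genes by 0.15 on the log2 scale, in the direction that the choice of members fixes. The genes of the mirrored rule stayed in the totals. On the same deposited scale 3155 of all genes tested, members included, were called higher. Median-of-ratios scaling moved the median of all genes from -0.38 to -0.02, and with it 4640 genes were called higher and 4917 lower. The median log2 fold change of the members was 3.23 as deposited and 3.60 with median-of-ratios scaling. It lay 3.62 above the median of all genes on both scales. This scaling multiplies each library by a single factor and shifts nearly all genes alike, so that gap could hardly change.

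The size of the difference varied widely among the members. The ratio of the lower OX-29 to the higher WT value had a median of 7.78 and reached 151. It was 4 to under 5 in 22 members, 5 to under 8 in 42, 8 to under 16 in 33, 16 to under 32 in 16, 32 to under 64 in 5 and 64 or more in 6. The ratio of the line means was 4.35 to 181, with a median of 9.33. The 29 members of at least 1000 CPM had a median ratio of 14.9, and 13 of them reached 16. The 95 members below 1000 CPM had a median ratio of 7.40, and 14 of them reached 16. Since the rule sets a floor on the OX-29 mean and on the ratio, these values describe the list only.

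**Figure D3:**
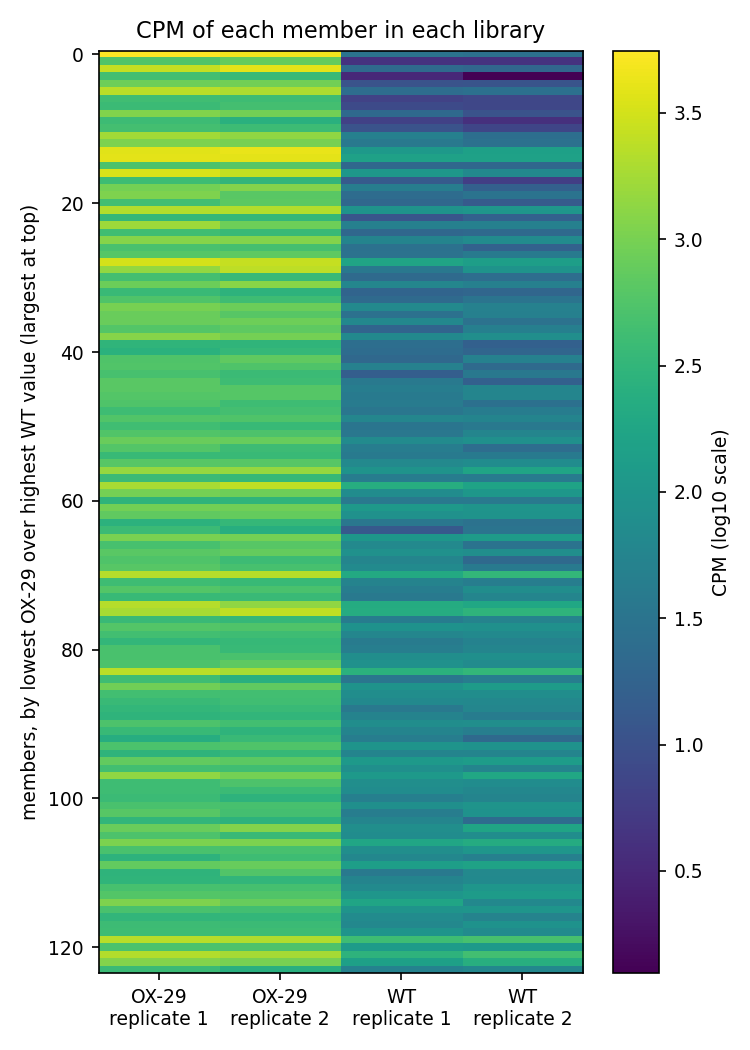
CPM (colour, log10 scale) of the 124 members (vertical, largest ratio of the lower OX-29 to the higher WT value at the top) in the 4 libraries (horizontal, OX-29 left of WT). Both OX-29 columns are brighter than both WT columns in every row, as the rule demands; the darkest WT cells, among members near the top, are the few members below 10 CPM in WT.

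The 6 members with the largest ratios fell into those with many reads in OX-29 and those with very few in WT. Csa1G587990, first of all genes by OX-29 reads, had 5574 and 4767 CPM in OX-29 replicates 1 and 2, against 31.5 and 28.2 CPM in WT replicates 1 and 2. Its log2 fold change was 7.41 ± 0.21 (SE). Csa2G420990 had 2686 and 3948 CPM in OX-29 replicates 1 and 2, against 23.2 and 20.3 CPM in WT replicates 1 and 2. The OX-29 libraries of this gene were 1.47-fold apart, a small gap beside its log2 fold change of 7.20 ± 0.25 (SE). Csa3G402970 had 2367 and 2006 CPM in OX-29 replicates 1 and 2, against 25.0 and 27.7 CPM in WT replicates 1 and 2. These 3 genes ranked 1st, 4th and 12th by OX-29 reads, and ranked 8390th, 9864th and 8963rd by WT reads.

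The other members of that group had fewer reads in both lines. Csa3G842740 had 875 and 928 CPM in OX-29 replicates 1 and 2, against 10.5 and 11.2 CPM in WT replicates 1 and 2. Csa2G167190 had 568 and 753 CPM in OX-29 replicates 1 and 2, against 4.29 and 4.21 CPM in WT replicates 1 and 2. Csa6G501300 had 449 and 371 CPM in OX-29 replicates 1 and 2, against 3.28 and 1.25 CPM in WT replicates 1 and 2. Csa6G501300 was the member with the fewest WT reads, 65 and 21 in WT replicates 1 and 2, and these libraries were 2.63-fold apart. The ratio of its pooled reads, scaled to library totals, was 175 (exact 95% interval of counting error, 142 to 219), and that of Csa1G587990 was 172 (163 to 183). The intervals overlap, so the order of these genes by fold is not settled.

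The next 5 members by ratio, named after their values were seen, all stayed at or below 21.7 CPM in WT. Csa4G012390 had 420 and 405 CPM in OX-29 replicates 1 and 2, against 6.46 and 7.53 CPM in WT replicates 1 and 2. Csa7G431440 had 378 and 447 CPM in OX-29 replicates 1 and 2, against 8.17 and 7.36 CPM in WT replicates 1 and 2. For Csa6G185830 the values were 1116 and 942 CPM in OX-29 replicates 1 and 2, against 21.7 and 10.7 CPM in WT replicates 1 and 2. This gene had the most OX-29 reads of the 5. Csa2G406060 had 395 and 255 CPM in OX-29 replicates 1 and 2, against 6.36 and 4.03 CPM in WT replicates 1 and 2, and Csa1G072450 had 452 and 400 CPM in OX-29, against 10.8 and 7.30 CPM in WT, in the same order.

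The other members among the 6 with the most OX-29 reads also had more reads in WT. Csa1G050360 had 3764 and 4192 CPM in OX-29 replicates 1 and 2, against 113 and 147 CPM in WT replicates 1 and 2. Csa1G598330 had 3955 and 3896 CPM in OX-29 replicates 1 and 2, against 154 and 154 CPM in WT replicates 1 and 2. These were the second and the third gene by OX-29 reads, with log2 fold changes of 4.94 ± 0.26 and 4.67 ± 0.24 (SE). Csa6G309980 had 3435 and 2619 CPM in OX-29 replicates 1 and 2, against 107 and 68.0 CPM in WT replicates 1 and 2. Csa3G848310 had 3267 and 2675 CPM in OX-29 replicates 1 and 2, against 171 and 137 CPM in WT replicates 1 and 2. Their ratios of the lower OX-29 to the higher WT value were 24.4 and 15.7, far below that of Csa1G587990.

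In WT the members covered a wide range of levels, from place 161 to place 15948 of 17180 by reads. Their mean WT level had a median of 52.6 CPM; 7 members were under 10 CPM and 23 were at 100 CPM or more. The median member ranked 5460th by WT reads, and 25 members ranked beyond place 8590, in the lower part of the list. The highest WT mean was that of Csa4G641600, with 2277 and 2035 CPM in OX-29 replicates 1 and 2, against 413 and 484 CPM in WT replicates 1 and 2. Csa2G307850 had 2138 and 1800 CPM in OX-29 replicates 1 and 2, against 290 and 435 CPM in WT replicates 1 and 2, and Csa4G331080 had 2348 and 1885 CPM in OX-29, against 270 and 324 CPM in WT, in the same order. For these 3 genes the large absolute gain in reads went with ratios of 4.20, 4.14 and 5.82, all below the median of the members; 40 members had a smaller ratio than Csa4G331080.

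The replicates were closer in OX-29 than in WT for these genes. The median absolute log2 difference between replicates of the members was 0.229 in OX-29 and 0.344 in WT. In the 423 other genes of at least 300 CPM in OX-29 it was 0.173 in OX-29 and 0.347 in WT, and over all genes tested 0.196 in OX-29 and 0.337 in WT. The rule bounds the spread of WT directly and that of OX-29 indirectly, so these values are descriptions. Replicates were within 1.2-fold in 72 members in OX-29 and in 45 members in WT, and 1.5-fold apart or more in 12 members in OX-29 and in 38 in WT. OX-29 replicate 1 was the higher library in 76 members and OX-29 replicate 2 in 48; WT replicate 1 was the higher in 57 and WT replicate 2 in 67. Across the 124 members, which share libraries and are not replicates, the Spearman correlation between replicates was 0.91 in OX-29 and 0.86 in WT.

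**Figure D4:**
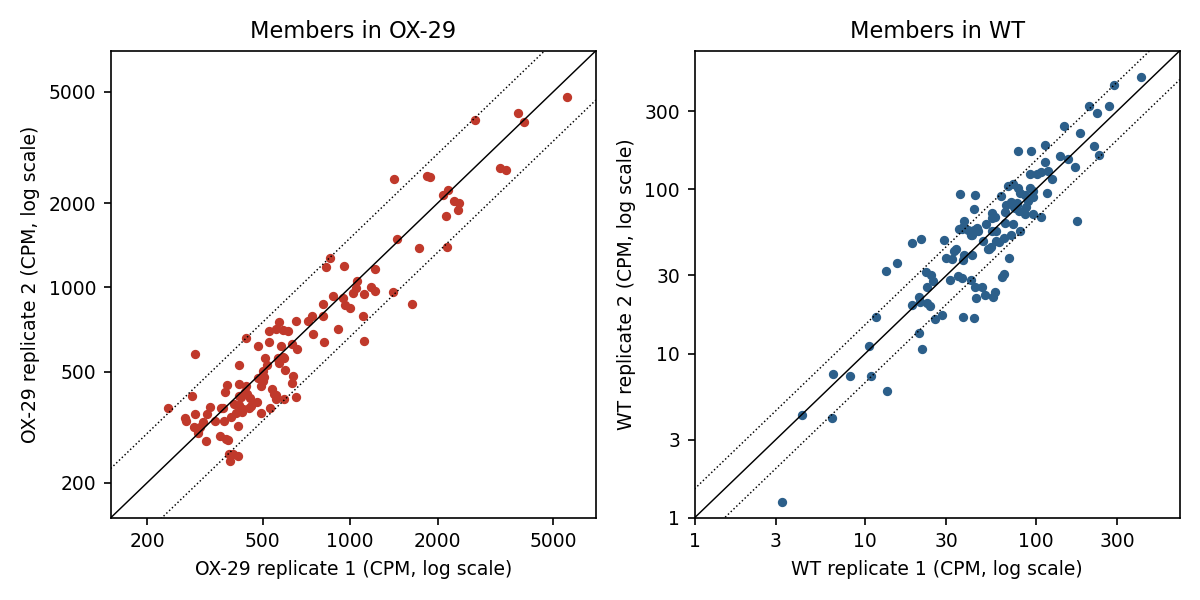
CPM of the 124 members in replicate 2 (vertical, log scale) against replicate 1 (horizontal, log scale), in OX-29 (left) and WT (right); the solid line marks equal values and the dotted lines a 1.5-fold difference. In OX-29, 12 members lie on or outside the dotted lines, and in WT 38 do.

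The members with the widest and the narrowest OX-29 replicates were as follows. Csa4G626100 had 293 and 578 CPM in OX-29 replicates 1 and 2, against 37.8 and 64.1 CPM in WT replicates 1 and 2, and its OX-29 libraries were 1.97-fold apart, the widest gap of any member in OX-29. Csa5G606310 had 1634 and 872 CPM in OX-29 replicates 1 and 2, against 49.1 and 48.6 CPM in WT replicates 1 and 2. The first was higher in OX-29 replicate 2 and the second in OX-29 replicate 1. At the other end, Csa2G129150 had 1056 and 1057 CPM in OX-29 replicates 1 and 2, against 181 and 222 CPM in WT replicates 1 and 2, and Csa1G015740 had 628 and 628 CPM in OX-29, against 65.9 and 73.2 CPM in WT, in the same order.

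At the lower edge of the ratio the members differed little from genes left out. Csa7G387170, with the smallest ratio of 4.12, had 384 and 253 CPM in OX-29 replicates 1 and 2, against 51.0 and 61.4 CPM in WT replicates 1 and 2. Csa5G156180 had 1183 and 1000 CPM in OX-29 replicates 1 and 2, against 147 and 242 CPM in WT replicates 1 and 2. Csa7G432520 had 517 and 528 CPM in OX-29 replicates 1 and 2, against 124 and 116 CPM in WT replicates 1 and 2, and its log2 fold change of 2.12 ± 0.17 (SE) was the lowest of all members. Csa6G512870 had 416 and 409 CPM in OX-29 replicates 1 and 2, against 96.8 and 71.1 CPM in WT replicates 1 and 2. Just outside were Csa6G000140, with 311 and 291 CPM in OX-29, against 72.7 and 68.8 CPM in WT, and Csa2G075300, with 826 and 877 CPM in OX-29, against 144 and 207 CPM in WT. Their ratios were 3.996 and 3.982.

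Genes also lay close to either side of 2 other limits. On the limit of 300 CPM, Csa3G017260 and Csa1G058140 were inside with OX-29 means of 300.7 and 301.1 CPM, and Csa7G257840 and Csa1G268280 were outside with 294.0 and 290.9 CPM. On the limit set to the WT libraries, Csa2G363570 was inside with 1109 and 789 CPM in OX-29 replicates 1 and 2, against 175 and 64 CPM in WT replicates 1 and 2, a WT ratio of 2.73. Csa3G733290 was outside with 1124 and 962 CPM in OX-29, against 17.8 and 54.3 CPM in WT, a WT ratio of 3.06. Without the WT limit, Csa3G733290 would have been a member, since its lower OX-29 value was 17.7 times its higher WT value. Csa4G064650, with 867 and 668 CPM in OX-29, against 78.9 and 24.4 CPM in WT, was left out in the same way.

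Position along the genome was not part of the rule. By the cucumber naming scheme, the first digit of an identifier was read as its chromosome and the digits after G as its rank there. Members were found on all 7 chromosomes and made up 0.623% (chromosome 2) to 0.889% (chromosome 7) of the listed genes there, that is, 13 of 2087 and 15 of 1687 genes. There were 139 listed genes for each member. In identifier order, 8 members formed 4 pairs of directly successive genes, and 17 members had another member within 5 listed genes. By the mirrored rule, 74 genes were abundant in WT and at least 4-fold lower in OX-29. The share with another gene of the same list directly beside it was 6.45% of the members and 5.41% of the mirrored list. Within 5 listed genes it was 13.7% of the members and 5.41% of the mirrored list, and within 10 it was 18.5% and 13.5% in the same order. The lists held 124 members and 74 mirrored genes, and a longer list has more of its genes close together by its size alone. The share that an even spread would give was not computed, and differences between the lists were not tested.

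**Figure D5:**
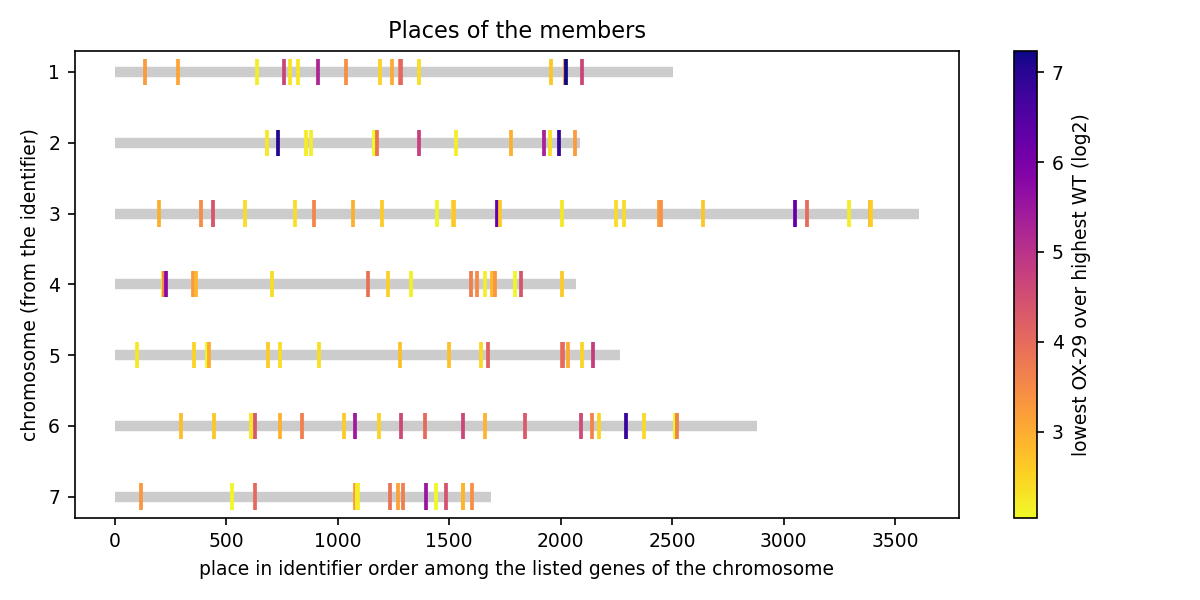
Places of the 124 members in identifier order among the listed genes (horizontal, rank within the chromosome) on chromosomes 1 to 7 (vertical); colour gives the log2 ratio of the lower OX-29 to the higher WT value. Members lie on every chromosome, and the neighbouring pairs appear as touching marks.

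The 4 pairs differed in how alike their members were. Csa1G587980 stands next to the top gene Csa1G587990 and had 649 and 405 CPM in OX-29 replicates 1 and 2, against 37.4 and 16.6 CPM in WT replicates 1 and 2. The pair had similar WT means of 27.0 and 29.9 CPM, while their OX-29 means were 527 and 5170 CPM. Neither of the listed genes on the outer sides of this pair was called higher. Csa1G588000 had 1.08 and 1.29 CPM in OX-29 replicates 1 and 2, against 14.8 and 18.0 CPM in WT replicates 1 and 2, and was called lower (log2 fold change -3.33, limma adjusted p = 0.000745). Csa1G587970, on the other side, had 17.7 and 11.1 CPM in OX-29, against 14.9 and 3.14 CPM in WT, and did not pass the test (limma adjusted p = 0.282).

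On chromosome 4, 3 members lay within 5 listed genes. Csa4G011770 had 1454 and 1488 CPM in OX-29 replicates 1 and 2, against 93.3 and 171 CPM in WT replicates 1 and 2. Its direct neighbour Csa4G011780 had 557 and 712 CPM in OX-29 replicates 1 and 2, against 21.2 and 49.7 CPM in WT replicates 1 and 2. In both genes WT replicate 2 was above WT replicate 1, by 1.83-fold in the first and 2.34-fold in the second. Csa4G011730 had 498 and 478 CPM in OX-29 replicates 1 and 2, against 80.8 and 95.6 CPM in WT replicates 1 and 2. Between them, Csa4G011750 had 201 and 161 CPM in OX-29, against 181 and 183 CPM in WT and did not pass the test (log2 fold change -0.02, limma adjusted p = 0.946). Csa4G011740, also between them, had 11.6 and 14.6 CPM in OX-29, against 3.53 and 3.03 CPM in WT, and was called higher (log2 fold change 1.84, limma adjusted p = 0.00393). On the outer sides, Csa4G011710 and Csa4G011790 did not pass the test (log2 fold change -0.22 and 0.57, limma adjusted p = 0.422 and 0.151).

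Both remaining pairs were on chromosome 7 and were more even. Csa7G447990 had 596 and 507 CPM in OX-29 replicates 1 and 2, against 43.6 and 76.0 CPM in WT replicates 1 and 2. Csa7G448000 had 650 and 755 CPM in OX-29 replicates 1 and 2, against 87.9 and 78.3 CPM in WT replicates 1 and 2. Their log2 fold changes were 3.24 ± 0.29 and 3.07 ± 0.19 (SE). On the outer sides of this pair, Csa7G447980 was called lower (log2 fold change -0.87, limma adjusted p = 0.00562). Csa7G448010 did not pass the test (log2 fold change 1.25, limma adjusted p = 0.0523). Csa7G387170, the member with the smallest ratio, stood beside Csa7G387180, which had 587 and 564 CPM in OX-29 replicates 1 and 2, against 102 and 125 CPM in WT replicates 1 and 2. Outside this pair, Csa7G387160 was called lower (log2 fold change -2.1, limma adjusted p = 0.003). Csa7G387680 did not pass the test (log2 fold change 0.19, limma adjusted p = 0.468). Whether the genes of a pair are alike in sequence was not tested. How reads that match several genes were counted is not given in the sources used here, so values within a pair may not be independent.

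Genes next to members were more often called higher than the listed genes as a whole. The 238 tested non-members that directly adjoin a member in identifier order had a median log2 fold change of 0.18, against -0.38 over all genes tested. Of these neighbours 80 were called higher, 33.6% beside 18.6% of all genes tested, and 52 were called lower, 21.8% beside 38.4%. The neighbours were chosen by place, but members were left out of them, while all genes tested include the members. Their difference from the other genes was not tested. The neighbours were not matched to the other genes on read level, and whether adjoining genes share reads through overlap was not tested.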

How the data were processed

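Poly(A) RNA was sequenced in paired ends from 2 OX-29 and 2 WT libraries, per the labels' protocols. The submitters' processing notes name TopHat and HTSeq; for versions, genome build, annotation and use of strand nothing is stated in these sources. The authors deposited CPM, which sum to 1000000 per library over 17180 genes; the second highest value of a listed gene is never below 0.897 CPM. All values (100% within 0.001 reads) were whole multiples of a library's smallest step, so whole reads were recovered. No column was left out.

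The members and tests were chosen with earlier results of these data known. The fit was limma 3.58.1 in R 4.3.3 on log2(CPM + 0.5), with trend and line as the only term, over the 16982 genes that averaged 1 CPM or more, with Benjamini-Hochberg adjustment over all of them and a threshold of 0.05. The fold changes are on that log2 scale. The p-values set the difference between the lines against the spread between libraries of a line. That spread is pooled over both lines and moderated across genes, and it covers these libraries only. Alternatives included other pseudocounts, filters and scalings, each library left out, and edgeR 4.0.16 and DESeq2 1.42.0 on the whole reads. These steps were tried on simulated counts, with as many genes raised as lowered and the same replicate spread in both lines. The data differ from the simulation in both respects, so it does not vouch for these results. Leaving the member reads out of the totals was added after the data had been seen. Apart from 5 members named for their ratio after their values were seen, genes were named by fixed rules (most OX-29 reads, largest and smallest ratio, highest WT mean, widest and narrowest OX-29 replicates, tightest pairs, edges of the rule); genes adjoining a pair were named by place. Replicate numbers recur in both lines, and no label says that they pair libraries.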

Additional observations from a re-analysis of the deposited data

How the results depend on the processing

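The number of members depended on the limits and the scaling. It was 188 with median-of-ratios scaling and 183 with TMM factors, and both lists held all 124 members. Both scalings raise OX-29 against WT, so that no member was lost was nearly fixed by their direction. The number of members was 60 at a fold minimum of 8 and 67 at a minimum of 500 CPM. Without WT replicate 1 or 2 it was 145 or 177, and the limit on the WT ratio no longer applied. Without OX-29 replicate 1 or 2 it was 142 or 143, and each of these lists held 116 of the 124 members. Of the numbers with a library left out, the largest came without WT replicate 2. The share of reads in OX-29 was 9.32% without the 3 members with the most reads. The median log2 fold change of the members was 3.12 with a pseudocount of 5, 3.60 with median-of-ratios scaling or DESeq2, 3.58 with edgeR, and 3.25 to 3.36 without each library. All 124 members were called higher under each alternative that kept all 4 libraries and tested the members. The rule used the same contrast, so nothing is read from the calls of members here or under the replicate block. edgeR on the whole reads called 4423 genes higher and 4967 lower, and DESeq2 4612 and 5047. The replicate block gave 3030 higher and 6390 lower genes. Across genes, the OX-29 and WT differences between replicates had a correlation of -0.02. With a single difference per line, this cannot decide whether the replicate numbers pair libraries. Over all genes, quantile normalization gave 4121 lower genes, and leaving out each library gave 1603 to 3254 higher and 4198 to 6224 lower. Without OX-29 replicate 1 there were 1603 higher and 4198 lower genes, and without OX-29 replicate 2 there were 1710 and 4222, where the lone OX-29 library is assumed to vary like WT. With the closeness limit at 1 or 2 listed genes, 8 members had another member close by. The cause of these shifts was not tested. Depth limits the fold of the members with few WT reads, such as Csa6G501300 with 65 and 21 reads in WT.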
